A study of Mus musculus with 15 samples.

Results

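The genes described are a set of 9 that the mouse uses in red cells and in the handling of iron: Hba-a1, Hbb-b1, Alas2, Slc4a1, Bpgm, Slc25a37, Tfrc, Fth1 and Ftl1. They were picked by name, for their roles and with their levels on these same 15 arrays already known, so their levels and their order over the arrays are given as a description. Of the 9 genes among the 19057 named on the array, 8 had a probe under their symbol, with 13 probes in all, and 7 had a probe above noise in at least 5 arrays. No probe was listed under Hbb-b1. Hbb-bs (6 probes) and Hbb-bt (4 probes), the adult β-globin genes of the C57BL/6 haplotype, are given in its place, which makes 10 genes described, 9 of them tested, and 23 probes. A further, dim β-globin probe was listed under Hbb-b2 and is read with the other red cell genes. The adult β-globin genes are near-identical copies of one another, as are the adult α-globin genes. A globin probe may therefore have bound the product of more than 1 gene of its own kind.

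RNA came from the tibialis anterior (TA) muscle of 15 male mice, C57BL/6 and 8 to 10 weeks old by the labels (C57BL/6J in the study's methods), with 1 bead array per mouse and 5 arrays under each of 3 labels. Ctrl mice had received PBS. Dox mice had received 15 mg/kg of doxorubicin, a DNA-damaging anthracycline used in chemotherapy, by intraperitoneal injection, and the TA was taken 20 h after doxorubicin or PBS. Dox + sACVR2B mice had been given 10 mg/kg of sACVR2B-Fc, the ligand-binding part of the human activin receptor type IIB fused to a human antibody Fc part, which traps myostatin and activins, 48 h ahead of the same dose of doxorubicin.

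The labels are in doubt. Cdkn1a, which encodes the cell cycle inhibitor p21 and is induced by p53 after DNA damage, had a signal of 2359 to 4634.2 on 10 arrays and of 131.6 to 358.8 on the other 5. The arrays under 1000 were those labelled Ctrl 2, Ctrl 3, Dox 2, Dox + sACVR2B 4 and Dox + sACVR2B 5, so that 3 of the 5 libraries labelled Ctrl had a high and 1 of the 5 labelled Dox a low Cdkn1a signal. No library was moved or left out for this reason, and each comparison by label below rests on the labels as given. Values are quantile-normalized signals on a linear scale, with noise up to a signal of 12.4 and none above 29731 on any array. A value from a bulk muscle sample cannot tell fewer cells of a type from less RNA per cell.

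As background, red cells lose their nucleus on maturing and carry little RNA, and most of what the youngest of them in blood still hold is globin mRNA. Haemoglobin joins α- and β-globin chains to haem, whose synthesis in red cell precursors starts with the enzyme encoded by Alas2. Muscle fibres take up iron through the transferrin receptor, for their own haem, for myoglobin and for mitochondrial proteins, and store the surplus in ferritin. In animal cells low iron stabilises the mRNA of the transferrin receptor and holds back the translation of ferritin, through iron regulatory proteins that bind both kinds of mRNA.

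The globin and Alas2 signals moved together over the arrays, and the promoters of these genes are shown for that reason. RefSeq (GRCm38.p6) gave a promoter window for Hba-a1, Hbb-bs, Hbb-bt, Alas2, Bpgm, Tfrc, Fth1 and Ftl1. The 250 bases that end just before the start of transcription are printed 5′ to 3′ on the strand of the gene. They lie at chr11:32283422-32283671 on the plus strand for Hba-a1, at chr7:103827929-103828178 on the minus strand for Hbb-bs, at chr7:103813924-103814173 on the minus strand for Hbb-bt and at chrX:150547167-150547416 on the plus strand for Alas2. Capitals mark matches, on either strand, to GATAA (reverse TTATC), a core of the motif that GATA factors bind, and to CACCC (reverse GGGTG), the core of the motif that erythroid Krüppel-like factor binds. The 2 motifs share no match, but matches to CACCC may adjoin each other.
Hba-a1: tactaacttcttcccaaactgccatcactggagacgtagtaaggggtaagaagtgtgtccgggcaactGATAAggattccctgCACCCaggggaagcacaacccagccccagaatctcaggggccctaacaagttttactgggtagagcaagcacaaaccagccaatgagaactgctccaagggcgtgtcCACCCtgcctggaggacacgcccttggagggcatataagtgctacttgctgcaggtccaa
Hbb-bs: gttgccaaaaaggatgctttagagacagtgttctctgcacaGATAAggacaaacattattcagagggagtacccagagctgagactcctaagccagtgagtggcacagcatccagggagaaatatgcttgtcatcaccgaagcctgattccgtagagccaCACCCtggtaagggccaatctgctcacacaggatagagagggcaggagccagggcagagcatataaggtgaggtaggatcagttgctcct
Hbb-bt: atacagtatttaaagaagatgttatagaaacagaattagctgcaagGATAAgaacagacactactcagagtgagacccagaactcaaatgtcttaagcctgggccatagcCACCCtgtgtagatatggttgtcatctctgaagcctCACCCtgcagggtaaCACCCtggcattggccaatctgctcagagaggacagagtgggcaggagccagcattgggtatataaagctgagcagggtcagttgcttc
Alas2: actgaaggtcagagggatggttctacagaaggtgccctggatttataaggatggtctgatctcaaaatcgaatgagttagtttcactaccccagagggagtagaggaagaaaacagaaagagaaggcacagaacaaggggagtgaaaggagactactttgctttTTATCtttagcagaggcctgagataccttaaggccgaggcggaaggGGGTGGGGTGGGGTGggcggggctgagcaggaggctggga

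Each of the 4 windows held 1 match to GATAA. Matches to CACCC numbered 2 in Hba-a1, 1 in Hbb-bs, 3 in Hbb-bt and 3 in Alas2, where they form a row of 3 on the reverse strand. Over all 32851 promoter windows of the same length, 22.6% held GATAA, 52.0% held CACCC and 10.1% held both. The windows of Bpgm and of both Tfrc starts held no GATAA, and the Tfrc windows held 5 matches to CACCC. Neither did that of Ftl1, with 3 to CACCC. The pair of motifs was not confined to the red cell genes, since the windows of Fth1 held 1 match to each, as did that of Hbb-bs. The Fth1 signals lay too near the top of the scale to be set against those of the red cell genes. A match shows only that the letters are present.

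The red cell genes formed one pattern with a single array far above the rest, the library labelled Dox + sACVR2B 5. Hba-a1, an α-globin gene, had signals of 7313, 5753.9, 6966.2, 10082.7 and 8415.5 in the libraries labelled Ctrl 1 to Ctrl 5, of 3037, 8100.2, 7353.9, 4107.3 and 4778.9 in Dox 1 to Dox 5, and of 6454.2, 5827.6, 3794, 4997.6 and 26542.9 in Dox + sACVR2B 1 to Dox + sACVR2B 5. The last of these was 4.32 times the median of the other 14 arrays and 2.63 times the highest of them, Ctrl 4. The lowest was Dox 1, and the other 14 arrays spanned a 3.32-fold range with all 3 labels overlapping.

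β-globin followed nearly the same order (Spearman's rho 0.99 between Hba-a1 and Hbb-bs). The brightest Hbb-bs probe had signals of 8551.4, 7630.2, 8481, 13142.2 and 9996.5 in Ctrl 1 to Ctrl 5, of 3540.5, 9996.5, 9294.7, 4962.8 and 5541.5 in Dox 1 to Dox 5, and of 7313, 6095, 4128.1, 5656.6 and 28836.6 in Dox + sACVR2B 1 to Dox + sACVR2B 5. Again Dox 1 was lowest and Dox + sACVR2B 5 highest, at 3.86 times the median of the others. For Hbb-bt, its neighbour on the chromosome, the brightest probe read 22432.9 in Dox + sACVR2B 5 and 3246.5 to 10835.5 in the other 14, a ratio of 3.69 to their median. All 10 probes of Hbb-bs and Hbb-bt were highest in Dox + sACVR2B 5, at 3.69 to 7.05 times the median of the other arrays. The dim Hbb-b2 probe was highest there as well, at 106.1 against at most 27 elsewhere. The brightest of the globin probes neared the top of the scale there, which bounds the ratio they can show.

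**Figure D1:**
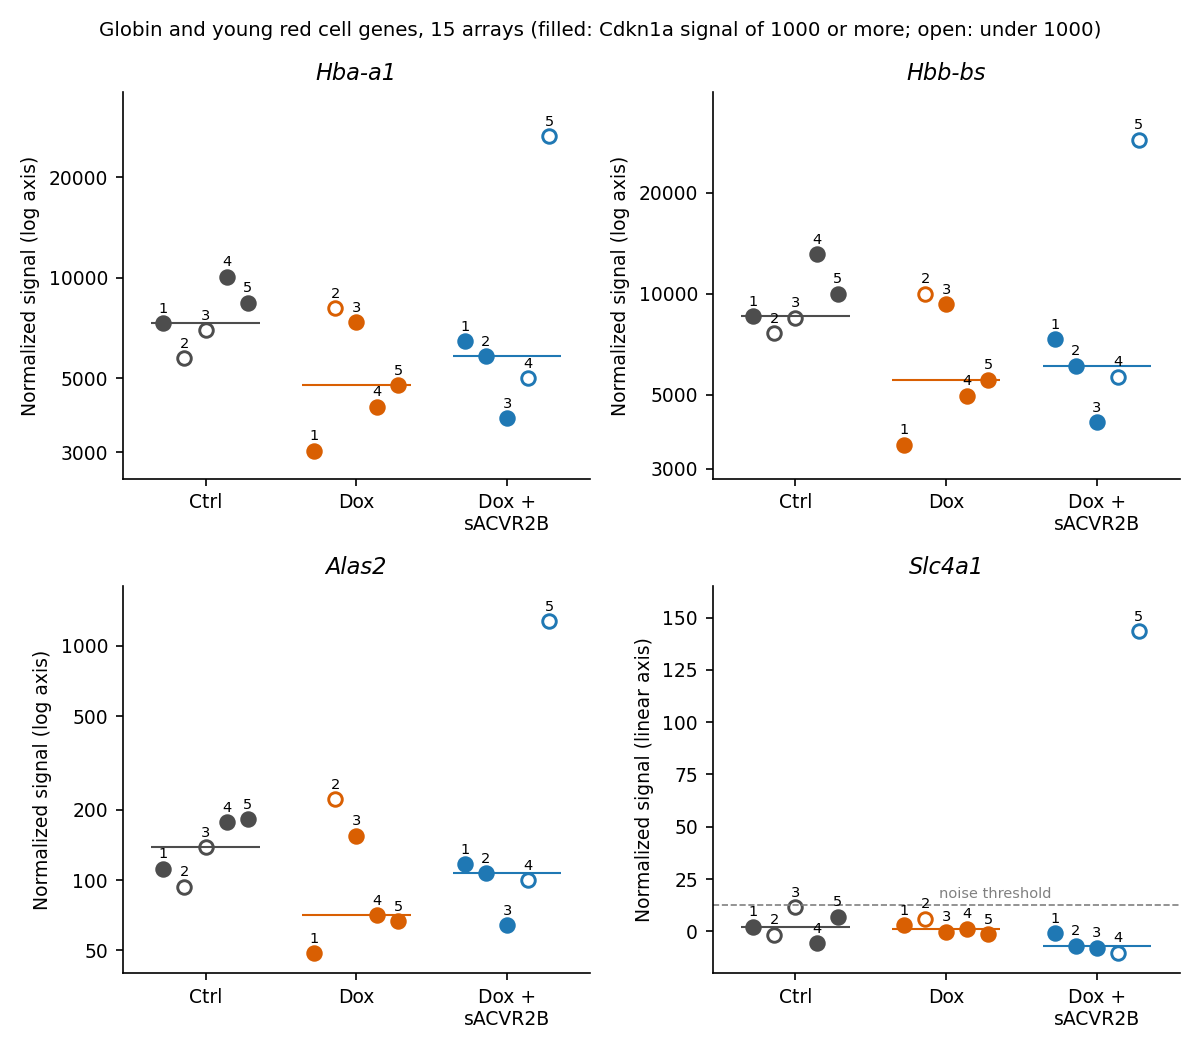
Normalized signal of Hba-a1, Hbb-bs and Alas2 (log axes) and Slc4a1 (linear axis, with the noise threshold dashed) on each of 15 arrays by label, numbered by replicate, with a line at the median of each label, filled points for arrays with a Cdkn1a signal of 1000 or more and open points for those under 1000. Dox + sACVR2B 5 stands above the other 14 arrays for each gene, with 26542.9 for Hba-a1 and 143.6 for Slc4a1.

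Alas2, the red cell form of the enzyme for the first step of haem synthesis, showed the widest ratio. Its signal was 111.9, 93.8, 138.1, 177 and 182.2 in Ctrl 1 to Ctrl 5, 48.7, 221, 154.6, 70.7 and 66.7 in Dox 1 to Dox 5, and 116.7, 107.2, 64.1, 100.1 and 1277.4 in Dox + sACVR2B 1 to Dox + sACVR2B 5. That put Dox + sACVR2B 5 at 11.7 times the median of the others and 5.78 times the next array, Dox 2, while Dox 1 was lowest here too. Without Dox + sACVR2B 5 the highest array was 4.54 times the lowest.

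Slc4a1 encodes band 3, the anion exchanger of the red cell membrane. It was above noise in 1 array only, with a signal of 143.6 in Dox + sACVR2B 5 against -10.2 to 11.4 in the other 14, so it entered no test. The difference between that array and the others could therefore be seen, and no difference among the other 14 was measurable. Epb42, which encodes a membrane partner of band 3, was not above noise in any array, Dox + sACVR2B 5 included (-13.8). Of the 5 red cell markers with a probe, 3 passed the filter (Hba-a1, Alas2 and Hbb-b2). All 5, passing or not, summed to 5854 to 10276 under Ctrl, 3092 to 8340 under Dox and 3858 to 28070 under Dox + sACVR2B. Negative values were left out of this sum and of those of the other marker lists.

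Signals that set Dox + sACVR2B 5 apart were also counted over all genes, as a background. Among all probes above noise, 4.76% had their highest signal in this array, against 5 of the 9 genes tested here (Hba-a1, Hbb-bs, Hbb-bt, Alas2 and Slc25a37). At least 2-fold above the next array on the log2(signal + 50) scale were 23 probes, or 0.108%. These included all 12 probes of Hba-a1, Hbb-bs, Hbb-bt and Alas2. Of the other 11, 5 had no gene name, and 6 belonged to Mup2 (2 probes), Hp, Ppbp, Hbb-b2 and Rtkn2, genes named only once their values were known. The array was part of how the genes were picked, so nothing is read from these shares.

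Markers of other cell types were read on the same arrays. All 7 skeletal muscle markers were above noise, and their summed signal was 140810 to 159952 under Ctrl, 143755 to 160434 under Dox and 129407 to 139948 under Dox + sACVR2B, with Dox + sACVR2B 5 (132854) in place 14 of 15. The sums under Dox + sACVR2B all lay below those under Ctrl and Dox, so the low place was shared by the label. The 7 markers read 14975.2 to 26778.8, high on the scale, where differences in amount are harder to read. Adipoq, which encodes the fat cell hormone adiponectin, was highest in Dox + sACVR2B 5, at 1479.7 against 44.8 to 772.1 in the other arrays. It was the 1 of 3 fat cell markers on the array that passed the filter of 5 arrays above noise. Plin1, at 18.3 in Dox + sACVR2B 5 and 21.4 in Dox 2, and Fabp4, at most 8.7, did not pass it. The summed signal of all 3 fat cell markers, passing or not, was 45 to 706 under Ctrl, 285 to 794 under Dox and 148 to 1502 under Dox + sACVR2B.

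Blood cell markers differed in whether they were high in that array. The platelet gene Ppbp read 110 there and at most 26 elsewhere. Of 5 platelet markers 2 passed the filter, and Itga2b, Gp9 and Gp1bb did not, with Gp9 at 13.8 there. The platelet list summed to 170 to 382 under Ctrl, 233 to 582 under Dox and 184 to 497 under Dox + sACVR2B. The sum of 497 was that of Dox + sACVR2B 5, which was place 2. The B cell gene Cd79b read 47.5 there and at most 27.2 elsewhere, and the other 3 lymphocyte markers with a probe, Ms4a1, Cd3e and Cd3g, did not pass the filter and read at most 7.8, 6.5 and 13.2. The lymphocyte list summed to 11 to 20 under Ctrl, 9 to 32 under Dox and 21 to 56 under Dox + sACVR2B. The sum of 56 was that of Dox + sACVR2B 5, which was place 1. Of 7 neutrophil markers, only S100a8 and S100a9 passed the filter. All 7, passing or not, had a sum of 8 to 385 under Ctrl, 32 to 242 under Dox and 44 to 440 under Dox + sACVR2B. The sum was 224 in Dox + sACVR2B 5, which was place 5. All 5 macrophage markers with a probe passed, with sums of 694 to 1957 under Ctrl, 856 to 1923 under Dox and 639 to 1661 under Dox + sACVR2B. The sum of 1661 was that of Dox + sACVR2B 5, which was place 3. All 5 endothelial markers passed, with sums of 3317 to 4552 under Ctrl, 2805 to 3507 under Dox, 2897 to 3439 under Dox + sACVR2B and 3289 in Dox + sACVR2B 5, which was place 9. The part that any of these cell types has in the signals of Dox + sACVR2B 5 was not tested.

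Over the 15 arrays the log2(signal + 50) levels of the red cell genes lay close to one another in pattern. Pearson's r with Hba-a1 was 0.99 for Hbb-bs, 0.99 for Hbb-bt and 0.96 for Alas2 (Spearman's rho 0.99, 0.99 and 0.97). Without Dox + sACVR2B 5 these were 0.99, 0.99 and 0.93, and without both that array and Dox 1 they were 0.98, 0.99 and 0.91. The closeness of the 4 genes thus did not rest on the 1 array. All points share the normalization over arrays, and the probes of Hbb-bs and Hbb-bt may share targets.

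Slc25a37 and Bpgm have roles in red cells but were not part of that pattern. Slc25a37 encodes mitoferrin 1, which brings iron into mitochondria and is most active in red cell precursors. Its brightest probe read 239.6, 227.9, 301.7, 262.8 and 217.7 in Ctrl 1 to Ctrl 5, 265, 329.8, 276, 316.2 and 316.4 in Dox 1 to Dox 5, and 288.5, 246.8, 314.9, 286.4 and 527.2 in Dox + sACVR2B 1 to Dox + sACVR2B 5. Dox + sACVR2B 5 was again highest, at 1.87 times the median of the others, but the likeness to Hba-a1 rested on it, with r = 0.51 over 15 arrays and -0.30 over the other 14. The second, dim probe of Slc25a37 read 3 to 50.6 and was highest in Dox + sACVR2B 4.

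Bpgm makes bisphosphoglycerate, the small molecule that loosens the hold of haemoglobin on oxygen. Its brightest probe read 39, 36.7, 26.2, 41.8 and 32.6 in Ctrl 1 to Ctrl 5, 51.6, 48.9, 34, 61.2 and 75 in Dox 1 to Dox 5, and 40.5, 37.5, 36.6, 38.7 and 48 in Dox + sACVR2B 1 to Dox + sACVR2B 5. It was highest in Dox 5, Dox 4 and Dox 1, and Dox + sACVR2B 5 was only 1.24 times the median of the others. Its second probe disagreed, with 12.8 to 38.3 and the highest signal in Ctrl 3, where the first probe was lowest. Both were dim, and r of the brightest probe with Hba-a1 was -0.17.

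Tfrc, which encodes the transferrin receptor through which cells take up iron, had an order of its own. Its signal was 1917.6, 4148.5, 4271.3, 1548.3 and 1292.2 in Ctrl 1 to Ctrl 5, 6249.4, 4751.9, 1527.7, 6765.7 and 7382 in Dox 1 to Dox 5, and 1957.5, 1990.9, 3921.5, 7878.5 and 4277.1 in Dox + sACVR2B 1 to Dox + sACVR2B 5. Dox + sACVR2B 5 lay near the middle here, at 1.06 times the median of the other 14. The arrays fell into a low stretch of 6 (Ctrl 5, Dox 3, Ctrl 4, Ctrl 1, Dox + sACVR2B 1 and Dox + sACVR2B 2), up to 1990.9, and a high stretch of 9, from 3921.5, with a gap of 0.96 on the log2 scale between them, the widest in the order. Each label had arrays in both stretches. The second Tfrc probe, at 1087.5 to 7122.5, had the same 6 arrays lowest, as had 0.718% of all probes above noise.

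**Figure D2:**
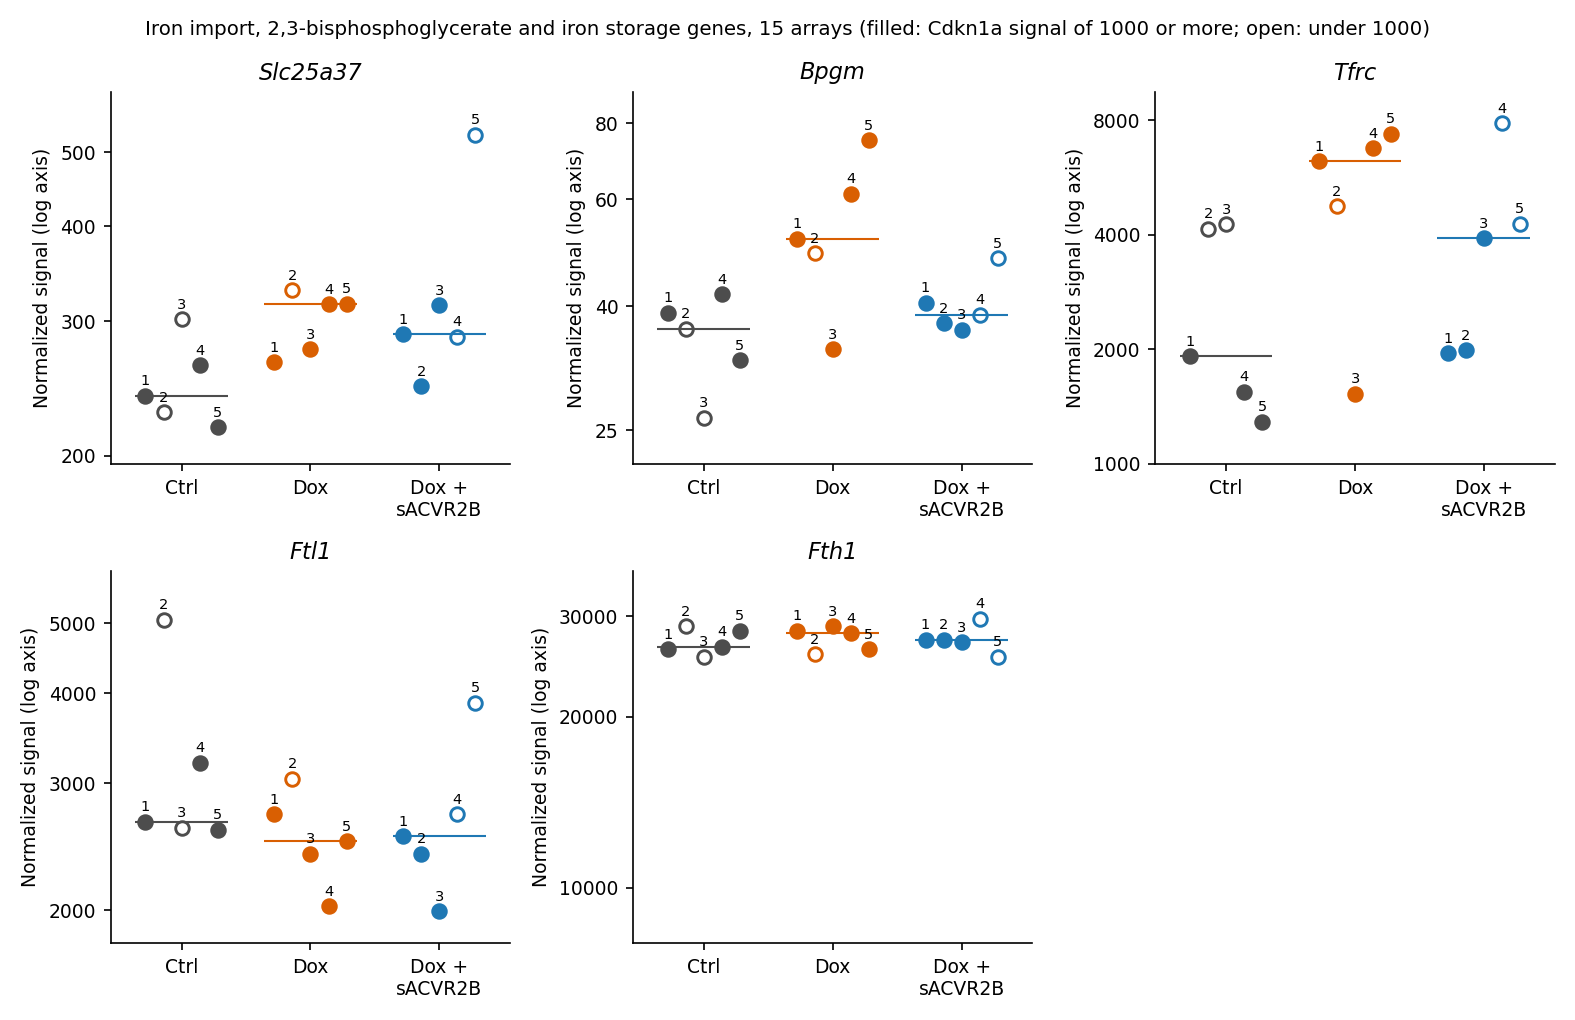
Normalized signal (log axes) of the brightest probe of Slc25a37, Bpgm, Tfrc, Ftl1 and Fth1 on each of 15 arrays by label, numbered by replicate, with a line at the median of each label and open points for arrays with a Cdkn1a signal under 1000. Tfrc splits into 6 arrays up to 1990.9 and 9 from 3921.5, while Fth1 stays within 25484.4 to 29731.

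Tfrc stood in a partial relation to Cdkn1a, in which low Tfrc went with high Cdkn1a but high Tfrc went with either. All 6 arrays of the low stretch had a Cdkn1a signal of 1000 or more, from 4013.2 to 4634.2. The high stretch held the 5 arrays with Cdkn1a under 1000, at Tfrc signals of 4148.5 to 7878.5, together with 4 arrays of Cdkn1a 2359 to 3622.6, namely Dox 1, Dox 4, Dox 5 and Dox + sACVR2B 3. These 4 had the lowest Cdkn1a signals of the 10 arrays at 1000 or more. The Tfrc ranges of arrays with Cdkn1a of 1000 or more (1292.2 to 7382) and under 1000 thus overlapped.

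Within labels the relation differed. Under Ctrl, the 2 arrays with low Cdkn1a had Tfrc signals of 4148.5 and 4271.3, above the 1292.2 to 1917.6 of the other 3. Under Dox + sACVR2B they had 4277.1 and 7878.5, above the 1957.5 to 3921.5 of the other 3. Under Dox, the single array with low Cdkn1a (4751.9) lay between the other 4, which ran from 1527.7 to 7382. These subsets were drawn by a measured value and hold 1 to 4 arrays, so no test was made on them.

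The red cell genes had no like relation to Cdkn1a. Hba-a1 was 3037 to 10082.7 (median 6140.9) on the 10 arrays of high Cdkn1a and 4997.6 to 26542.9 (median 6966.2) on the 5 of low Cdkn1a, or 4997.6 to 8100.2 without Dox + sACVR2B 5. Alas2 was 48.7 to 182.2 on the first and 93.8 to 1277.4 on the second, or 93.8 to 221 without that array. Among the 10 arrays of high Cdkn1a, the 4 of lowest Cdkn1a (2359 to 3622.6) had lower Hba-a1 and Alas2 signals than the other 6. Their Hba-a1 was 3037 to 4778.9 against 5827.6 to 10082.7, and their Alas2 48.7 to 70.7 against 107.2 to 182.2. This was noticed in the values and was not tested. Within labels the direction turned: for Hba-a1 the 2 Ctrl arrays of low Cdkn1a (5753.9 and 6966.2) lay below the other 3 (7313 to 10082.7), whereas the 1 Dox array of low Cdkn1a (8100.2) lay above the other 4 (3037 to 7353.9). Of the 9 genes tested, 0 had ranges that did not overlap between the arrays of high and low Cdkn1a, where 3.48% of all probes above noise did so.

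Globin and Tfrc met in 4 arrays. Dox 1, Dox 4, Dox 5 and Dox + sACVR2B 3, the arrays of high Cdkn1a in the high Tfrc stretch, were the 4 lowest of the 15 for Hba-a1 (3037 to 4778.9), Hbb-bs (3540.5 to 5541.5), Hbb-bt (3246.5 to 4594.8) and Alas2 (48.7 to 70.7). Among all probes above noise, 0.765% had these same 4 arrays lowest. For Bpgm, by contrast, 3 of the 4 were among the 4 highest. The 4 arrays were noticed in these values, and no test was made on them.

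**Figure D3:**
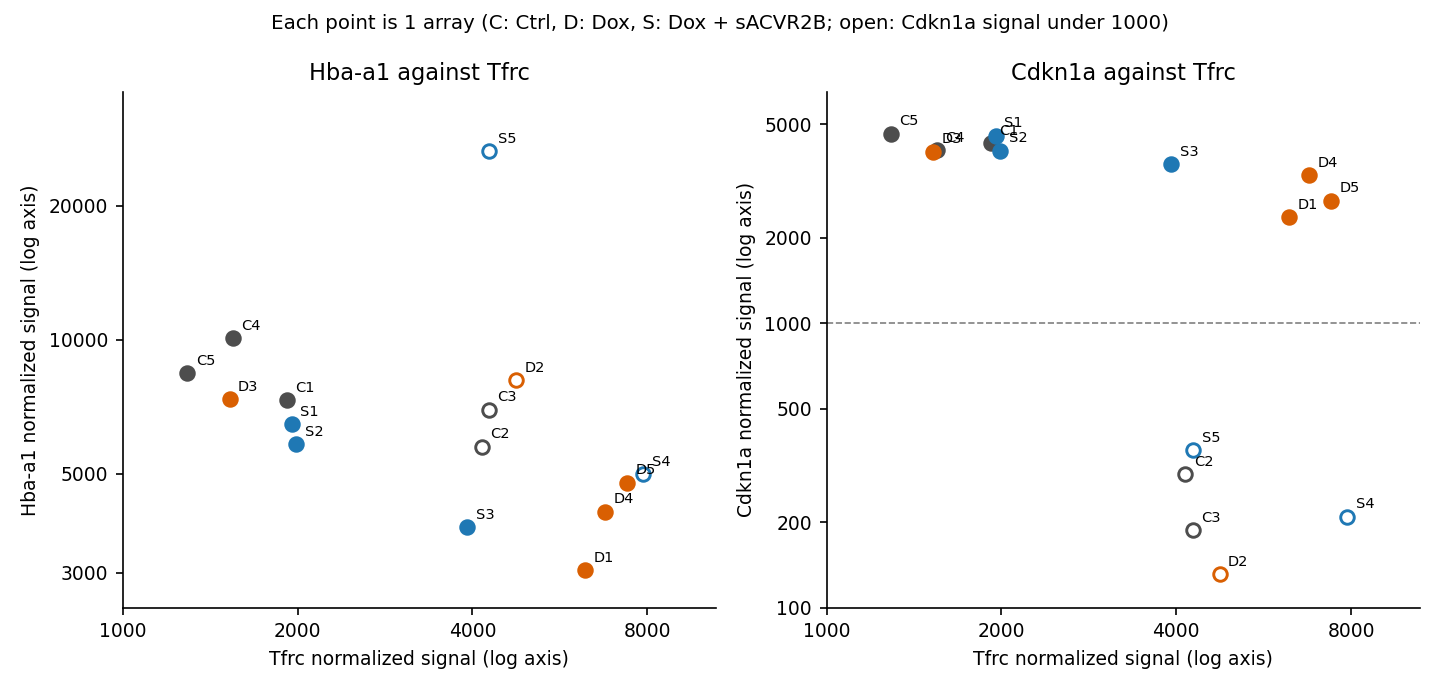
Normalized signal of Hba-a1 (left) and Cdkn1a (right) against that of Tfrc, all log axes, with 1 point per array (C for Ctrl, D for Dox, S for Dox + sACVR2B, open where Cdkn1a is under 1000, dashed line at a Cdkn1a signal of 1000). The 6 arrays of low Tfrc all have high Cdkn1a, and D1, D4, D5 and S3 have the lowest Hba-a1 signals beside Tfrc signals of 3921.5 to 7382.

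Over all 15 arrays r of Tfrc was -0.36 with Hba-a1 (rho -0.55) and -0.18 with Alas2 (rho -0.45). Without Dox + sACVR2B 5 these were -0.70 (rho -0.69) and -0.59 (rho -0.58). Because Tfrc fell into separate stretches, its likeness to the globins was also read inside each. In the low stretch of 6 arrays r with Hba-a1 was -0.71 (rho -0.83) and with Alas2 -0.95 (rho -0.89). In the high stretch it was -0.35 with Hba-a1 (rho -0.10) and -0.33 with Alas2 (rho 0.02) over the 8 arrays other than Dox + sACVR2B 5. The inverse order of Tfrc and the red cell genes was thus closer among the low arrays than among the high ones. Each stretch holds few arrays and only part of the range of Tfrc, which limits what r can show. Between the stretches, the median of Hba-a1 was 7333.4 in the 6 arrays of low Tfrc and 4997.6 in the 9 of high Tfrc, with overlapping ranges (5827.6 to 10082.7 and 3037 to 26542.9).

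Of the iron storage genes, Fth1 lay too near the top of the scale to be read, and Ftl1 followed neither pattern closely. Fth1 encodes the heavy chain of ferritin, which oxidises iron for storage. Its brightest probe stayed within 25484.4 to 29731 and held the highest signals of the scale, where normalization gives each array nearly the same set of values and a difference in amount cannot be read. Its second probe, at 18645.1 to 25290.9, was lowest in Dox + sACVR2B 5, at 0.793 times the median of the others.

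Ftl1 encodes the light chain of ferritin, which helps form the iron core. It read 2654, 5052.8, 2603.4, 3201.1 and 2585.6 in Ctrl 1 to Ctrl 5, 2715.5, 3041.2, 2395.9, 2026.4 and 2493.6 in Dox 1 to Dox 5, and 2531.1, 2394.2, 1993.4, 2718.6 and 3879.6 in Dox + sACVR2B 1 to Dox + sACVR2B 5. Ctrl 2 was highest and Dox + sACVR2B 5 next, both of them arrays of low Cdkn1a. Over 15 arrays r was 0.49 with Hba-a1 and 0.54 with Hbb-bs, and without Dox + sACVR2B 5 it was 0.31 and 0.40. With Tfrc r was 0.03. The second Ftl1 probe was never above noise.

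**Figure D4:**
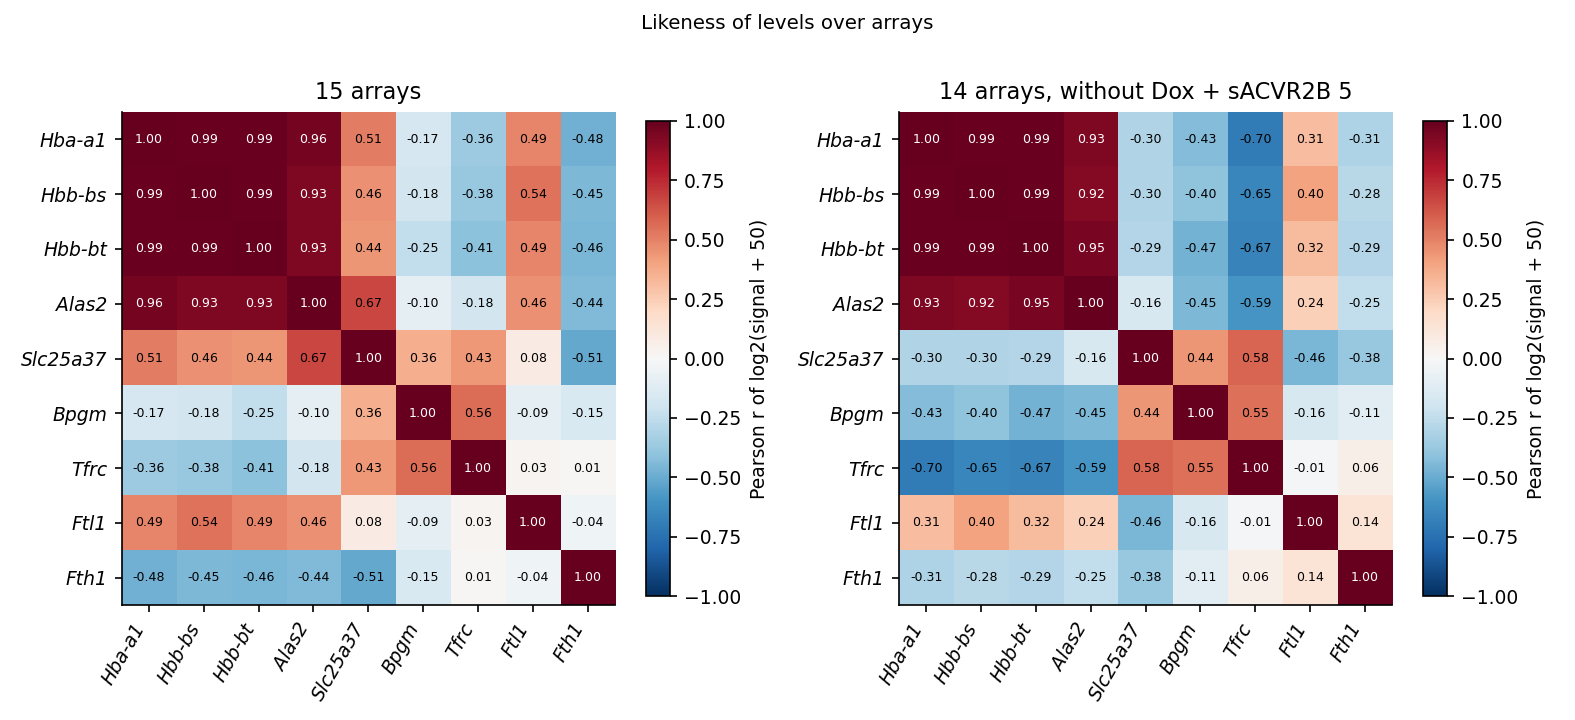
Pearson's r of log2(signal + 50) between the 9 genes tested, over 15 arrays (left) and over the 14 arrays other than Dox + sACVR2B 5 (right), with colour from -1 to 1. Globin and Alas2 form a block of 0.92 or more in both, while Slc25a37 with Hba-a1 turns from 0.51 to -0.30.

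By label, 0 of the 9 genes passed the test in either comparison, and the labels overlapped for each of them. Between Dox and Ctrl the limma fit over all 21307 probes called 0 probes at an adjusted p under 0.05 (0% of all), with 2130 (10.0%) at an unadjusted p under 0.05. Hba-a1 had a log2 level of 12.90 ± 0.30 under Ctrl and 12.34 ± 0.58 under Dox (SD, n = 5 each), a difference of -0.56 (SE 0.39, limma adjusted p = 0.649). Its 95% confidence interval was -1.38 to 0.27, and the 2 labels overlapped. Hbb-bs at -0.60 (SE 0.40), Hbb-bt at -0.59 (SE 0.38) and Alas2 at -0.32 (SE 0.49) likewise lay below 0 with intervals that held it, at limma adjusted p of 0.631, 0.615 and 0.853. Leaving out 1 array moved Hba-a1 between -0.72 (without Dox 2) and -0.37 (without Dox 1) and Alas2, for the same arrays, between -0.53 and -0.16. Beside this, the endothelial marker sums were 2805 to 3507 under Dox and 3317 to 4552 under Ctrl, and their part in the globin difference was not tested.

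Tfrc had the largest difference of the 9 genes. Its log2 level was 11.22 ± 0.79 under Ctrl and 12.21 ± 0.92 under Dox (SD, n = 5 each), a fold of 1.99 (95% confidence interval 1.03 to 3.86) that missed the threshold over all probes (limma adjusted p = 0.481). Of the 5 Dox arrays 4 were above all 5 Ctrl arrays, and Dox 3 (1527.7) was not. Without Dox 3 the difference on the log2 scale was 1.39 in place of 1.00, and without Ctrl 5 it was 0.79, with limma adjusted p of 0.254 and 0.504. Bpgm differed by 0.28 (SE 0.098, limma adjusted p = 0.382), with -0.11 from its second probe. Slc25a37 differed by 0.23, Ftl1 by -0.30 (-0.13 without Ctrl 2) and Fth1 by 0.02, at limma adjusted p of 0.600, 0.600 and 0.950. In all, 4 of the 9 genes lay above 0 and 5 below, with a median of -0.30 against 0.01 over all probes, and 0 of the 9 had labels that did not overlap, where 1.19% of all probes did.

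Between Dox + sACVR2B and Dox the differences of the red cell genes rested on 1 array. limma again called 0 probes (0% of all, with 881 at an unadjusted p under 0.05), and adjusted p for the 9 genes was 0.996 to 1.000. Hba-a1 differed by 0.48 (95% confidence interval -0.35 to 1.31) with all arrays and by 0.01 without Dox + sACVR2B 5. Hbb-bs went from 0.34 to -0.12, Hbb-bt from 0.37 to -0.06 and Alas2 from 0.59 to -0.05 when that array was left out. Tfrc differed by -0.42 (95% confidence interval -1.38 to 0.53), from 12.21 ± 0.92 under Dox to 11.79 ± 0.83 under Dox + sACVR2B (SD, n = 5 each). Bpgm lay at -0.20, Slc25a37 at 0.09, Ftl1 at 0.07 and Fth1 at -0.00. In all, 6 of the 9 lay above 0 and 3 below, with a median of 0.09 against 0.00 over all probes, and 0 of the 9 had labels that did not overlap, where 0.854% of all probes did.

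**Figure D5:**
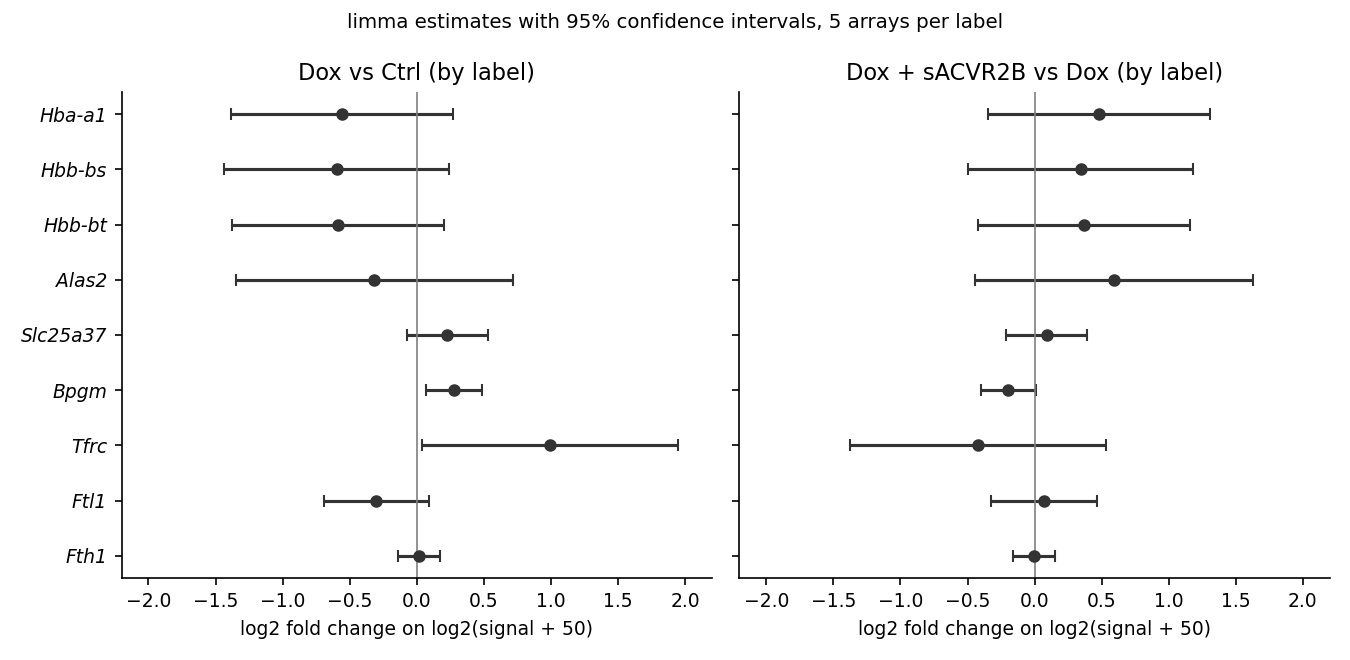
Difference in log2(signal + 50) between Dox and Ctrl (left) and between Dox + sACVR2B and Dox (right) for the 9 genes tested, as limma estimates (points) with 95% confidence intervals (bars), 5 arrays per label. The interval of Tfrc for Dox against Ctrl, 0.04 to 1.95, and that of Bpgm, 0.07 to 0.49, exclude 0 before adjustment over all probes, and all others hold it.

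Other genes of the same pathways were read in the same fit, from lists written from general knowledge. Of 33 other red cell genes 14 were tested and 0 called in either comparison (11 above 0 and 3 below for Dox against Ctrl, median 0.07). The 4 of highest mean signal were Gypc (glycophorin C), Sptb (β-spectrin), Ank1 (ankyrin 1) and Mkrn1 (makorin 1), of which the first 3 encode parts of the red cell membrane and its skeleton that other tissues also use. Their r with Hbb-bs was -0.53, 0.54, -0.25 and -0.38, none of them near that of Alas2 (0.93). Ank1, of which muscle has a short form of its own, followed Tfrc instead (r = 0.85), from 1348.4 in Ctrl 5 to 5254.8 in Dox + sACVR2B 4, the arrays of lowest and highest Tfrc, whereas Sptb ran against it (r = -0.70).

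Among haem synthesis genes 11 of 13 were tested and 0 called (4 above 0 and 7 below for Dox against Ctrl, median -0.07). Alas1, the form of the first enzyme used outside red cells, read 7382 to 12707.6, with r = 0.81 with Tfrc and -0.22 with Hbb-bs. Alad, the enzyme of the next step, had r = 0.59 with Tfrc and -0.61 with Hbb-bs. Urod, a later enzyme of the chain, and Tmem14c, which helps porphyrin into mitochondria, were nearer to Hbb-bs, with r of 0.54 and 0.50. Alas2 and Alas1 thus went with different genes over the same arrays.

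Among iron handling genes 25 of 35 were tested and 0 called (17 above 0 and 8 below for Dox against Ctrl, median 0.07). Those of highest mean signal were Pcbp2, an iron chaperone, Iscu and Glrx5, which serve the assembly of iron-sulphur clusters, and Mb, which encodes the haem protein myoglobin. Their r with Tfrc was -0.62, -0.48, 0.44 and -0.26, so these 4 had no common direction. Over all 25 tested, r with Tfrc ran from -0.70 to 0.83, so some went closely with Tfrc and others against it. For Dox + sACVR2B against Dox, the medians of the 3 lists were 0.00, 0.02 and -0.03. Of the 50 genes tested in the 3 lists, 0 had ranges that did not overlap between arrays of high and low Cdkn1a, beside 3.48% of all probes above noise.

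Beyond these lists, the genes nearest in pattern to Hbb-bs and to Tfrc were sought among 11449 genes outside the set. Nearest to Hbb-bs over 15 arrays were Rtkn2 (r = 0.85), Fgl2 (0.84), Klhl21 (0.83), Plvap (0.82), a gene of the blood vessel lining, and Scd1 (0.80), which encodes a fatty acid desaturase of fat tissue and liver. Without Dox + sACVR2B 5 they had r of 0.67, 0.64, 0.88, 0.82 and 0.65, so that Klhl21 and Plvap held their likeness and the other 3 lost part of it. Nearest to Tfrc were Tmem117 (r = 0.95), Dtna (0.95), which encodes a partner of dystrophin, the homeobox gene Meis1 (0.93), Ppp1r14b (0.93) and Rftn1 (0.93). Without Dox + sACVR2B 5 these were 0.93 to 0.95. The Tfrc pattern was thus shared more closely by other genes on these arrays than the globin pattern was by genes other than globins and Alas2.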

How the data were processed

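RNA of 15 TA muscles (5 per label) had been extracted with TRIsure, cleaned on NucleoSpin columns, labelled as biotinylated cRNA and hybridised to Illumina mouse bead arrays. The values the authors deposited are signal intensities, which they had background-subtracted and quantile-normalized. They run from -25.0 to 29731, 34.0% of them are below 0, and once sorted the arrays are within 0.5 of each other. A non-normalized table of 30 columns, whose names match 0 sample titles, was not used here. Scanner and software versions are not given in the sources used here.

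Probe names came from the platform annotation: of 45281 probes, 34885 had 1 gene, 18 several and 10378 none, and 34807 were matched to the reference annotation. Noise was estimated from the values below 0 (SD 7.52). Probes with a signal over 12.4 (1.645 SD) in at least 5 arrays were kept, 21307 in all, for 11458 named genes. Each array had 19843 to 19890 probes above noise. Their number, 15, limits the precision. Arrays of 1 label correlated at 0.973 to 0.994, so none was counted as a duplicate.

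Levels were taken as log2(signal + 50), which understates the fold of dim probes. A gene stood for its brightest probe. Labels were compared with limma 3.58.1 in R 4.3.3 (3 groups, 1 shared spread, two-sided, Benjamini-Hochberg over all kept probes, call at an adjusted p under 0.05), tested on simulated data first. Cdkn1a splits, orders of arrays and r between genes are descriptions without a test. The genes, lists, markers and tests were chosen with earlier results of these data known. By rule, genes named are the 9 of the set, Cdkn1a, from each list the 4 of highest mean signal, and the 5 nearest in r to β-globin and to Tfrc. Members of the cell type marker lists are named with their lists, and Mup2, Hp, Ppbp and Hbb-b2 in Dox + sACVR2B 5 were picked out from their values. The plan set Hbb-b1 as the β-globin of reference, and Hbb-bs took its place after the values were seen, as did the alternatives with Hba-a1 as covariate, without Dox + sACVR2B 5 in the levels, and with a fold of at least 1.5. Other alternatives were offsets of 26 and 100, no noise filter, a fit of the 2 labels alone, a robust prior with a trend, weights for arrays, cyclic loess, a block for the replicate number, Cdkn1a as covariate, the mean over probes and leaving out each array. Promoters are those of RefSeq (GRCm38.p6). The build behind the probe annotation is not given in the sources used here, and no coordinates of probes were used. Plots were drawn with matplotlib 3.10.9.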

Additional observations from a re-analysis of the deposited data

Results flagged for a closer look

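In groups of 5 arrays under 1 label, 5 of 30 groups (10 genes, 3 labels) had an array whose gap to its nearest neighbour was over 0.71 of the range of the group, a limit that chance passes in about 1 of 20 groups. In 4 of them the array was the library labelled Dox + sACVR2B 5. Hba-a1 read 26542.9 there against 3794 to 6454.2 in the other 4 of that label, Hbb-bt 22432.9 against 3864.5 to 6292.9, Alas2 1277.4 against 64.1 to 116.7 and Slc4a1 143.6 against -10.2 to -0.8. The genes were chosen with the high values of this array known, so these 4 restate what chose them and carry no chance rate, and red cell genes moved together over all arrays. The remaining one was Tfrc in the library labelled Dox 3, at 1527.7 against 4751.9 to 7382 in the other 4 labelled Dox.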

How the results depend on the processing

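Between Dox and Ctrl, 0 probes were called under each alternative, except that 2 were called without the library labelled Ctrl 5 (0 to 2 over the fits that leave out an array). Between Dox + sACVR2B and Dox the count was 0 throughout. With the replicate number as a block 0 probes were called in both comparisons. The numbers do not pair the samples, since 4 of 15 pairs of same-numbered arrays deviated together with a correlation over 0.1 (range -0.38 to 0.35).

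No gene of the set was called under the alternatives that gave an adjusted p (the mean over probes gave none). With Hba-a1 as covariate the log2 differences that changed sign were Alas2 (0.37) and Fth1 (-0.0090) between Dox and Ctrl, and Fth1 (0.020), Ftl1 (-0.029) and Slc25a37 (-0.025) between Dox + sACVR2B and Dox. With cyclic loess, Fth1 was 0.0034 in the latter. Leaving out arrays, the ranges between Dox and Ctrl were -0.72 to -0.37 for Hba-a1, -0.77 to -0.40 for Hbb-bs, -0.77 to -0.41 for Hbb-bt, -0.53 to -0.16 for Alas2 (each nearest 0 without Dox 1), -0.37 to -0.13 for Ftl1 (nearest 0 without Ctrl 2) and -0.0031 to 0.041 for Fth1. Between Dox + sACVR2B and Dox the ranges were -0.12 to 0.58 for Hbb-bs, -0.056 to 0.57 for Hbb-bt, -0.048 to 0.84 for Alas2, -0.068 to 0.17 for Ftl1, -0.070 to 0.17 for Slc25a37 and -0.034 to 0.021 for Fth1, with the lowest without Dox + sACVR2B 5 for all but Fth1. Tfrc kept its direction in both comparisons, at 0.79 to 1.39 and -0.82 to -0.22. The cause of these shifts was not tested. Signals near the top of the scale (Fth1 on all arrays, globins in Dox + sACVR2B 5) and near noise (Slc4a1, Bpgm) limit what could be measured.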
